A study of Drosophila melanogaster with 8 samples.

Results

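Nuclear-encoded subunits of the 5 mitochondrial respiratory complexes were examined in poly(A) RNA from Drosophila melanogaster heads. Members were the genes whose current symbol starts with ND- or ND and a digit (complex I), Sdh (complex II), UQCR (complex III), COX and a digit (complex IV) or ATPsyn (complex V). The rule found 88 of 16727 gene symbols once the RefSeq accessions in the tables were matched to current names, and 11 by the older spelling printed in the tables themselves (Oscp for ATPsynO, CoIV for COX4). Of the 88 genes, 40 belonged to complex I, 8 to complex II, 9 to complex III, 16 to complex IV and 15 to ATP synthase (complex V). By name, 63 were subunits, 24 were paralogues of a subunit and 1, Sdhaf3, was an assembly factor of complex II. Genes of the mitochondrial genome itself were not analysed here.

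The 8 libraries formed 4 groups of 2: the vri mutant vriΔ679 at ZT14 (early night), wild type (strain w1118) at ZT14, vriΔ679 at ZT2 (morning) and wild type at ZT2. vri encodes VRILLE, a bZIP repressor of the circadian clock. All flies were kept in 12 h of light and 12 h of dark at 25 °C and were collected after 3 days of entrainment. The labels give neither sex nor age, do not say whether the stocks share a genetic background, and do not describe what vriΔ679 removes, so the allele and the stock cannot be told apart. Libraries were sequenced 4 to a run, and the labels do not say which of them shared a run, so the part of the run in any difference was not tested. Nothing states that replicates came from separate fly samples, so p-values measure only the spread between these libraries. In whole heads, fewer cells of a type and less RNA per cell cannot be told apart.

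The respiratory chain passes electrons from NADH (complex I) and succinate (complex II) through ubiquinone to complex III, through cytochrome c to complex IV and on to oxygen. Complexes I, III and IV pump protons across the inner mitochondrial membrane, and ATP synthase uses the return flow to make ATP. Photoreceptors and muscle are both known for a high content of mitochondria. Most subunits are encoded in the nucleus and are needed in fixed ratios within their complex.

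Mapped reads numbered 49.3 to 65.4 M per library, and 3 reads on a 1 kb transcript corresponded to 0.0458 to 0.0609 FPKM (a fragment count divided by transcript length and by the mapped reads of the library). Levels below are FPKM summed over the transcripts of a gene and rescaled between libraries. The 3 vri transcripts with the most downstream start made up 1.00% of vri FPKM in vriΔ679 ZT14 replicate 1 and 74.1% in the library labelled vriΔ679 ZT14 replicate 2, against 96.4% and 99.0% in wild type at ZT14. They made up 0.504% and 0.275% in vriΔ679 at ZT2, against 95.5% and 99.6% in wild type at ZT2. The library labelled vriΔ679 ZT14 replicate 2 thus went against its label in this respect. Results that use it are also given without it or for each mutant library apart. Markers of other cell types also moved with genotype at ZT14, by limma at an adjusted p of 0.05. In that test 12.8% of all genes tested were called lower and 9.53% higher. Of 14 muscle markers, 7 were lower and 1 (TpnC41C) higher, with summed levels of 5936 to 6774 FPKM in vriΔ679 and 11227 to 12256 FPKM in wild type. Of 11 photoreceptor markers, 3 (ninaE, Arr1 and Arr2) were higher and 1 (chp) lower, with summed levels of 42735 to 43677 FPKM in vriΔ679 and 23793 to 27216 FPKM in wild type. Lower calls numbered 8 of 9 glial markers (908 to 936 FPKM in vriΔ679, 1595 to 1634 FPKM in wild type), 5 of 12 fat body markers, Fbp1, Fbp2, Lsp2, Yp3 and fit (2594 to 4275 against 5545 to 9264 FPKM) and 3 of 8 hemocyte markers, srp, Cg25C and vkg (101.1 to 111 against 200.4 to 252 FPKM). None of 9 neuronal markers was called (990 to 1353 FPKM in vriΔ679, 1080 to 1323 FPKM in wild type), and of 10 testis markers 1 was abundant enough to test and Mst84Da was listed at 0 in every library. Testis markers summed to 1.61 FPKM in vriΔ679 ZT14 replicate 1 and 4.204 FPKM in the library labelled replicate 2, against 1.15 and 1.17 FPKM in wild type at ZT14. Median log2 differences from the wild-type ZT14 mean, in replicate 1 and the library labelled replicate 2, were -0.81 and -0.90 for muscle. They were 0.19 and 0.09 for photoreceptors, -0.69 and -0.68 for glia and -0.67 and -1.49 for fat body. Hemocytes had -0.92 and -0.82, and neurons -0.22 and 0.11. These markers were named after their values were seen, and the part of these cell types in the results below was not tested.

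Respiratory chain transcripts were abundant in every library. The 88 members together made up 5.22% of all FPKM in vriΔ679 ZT14 replicate 1 and 4.34% in replicate 2, against 4.76% and 5.03% in wild type at ZT14. At ZT2 the shares were 4.49% and 4.46% in vriΔ679 and 4.42% and 4.77% in wild type. Of the 63 subunits, 59 or 60 stood at 100 FPKM or more in each library. The medians and ranges that follow are of the 61 subunits that passed the filter given further below. Averaged over the 8 libraries, the median subunit of complex I stood at 244 FPKM, that of complex II at 293 FPKM, of complex III at 498 FPKM, of complex IV at 565 FPKM and of complex V at 662 FPKM. FPKM is per transcript length, so these levels can be set side by side between genes, but only roughly. They also depend on how reads were shared among transcripts and overlapping genes, as described below. Levels within complex I ran from 63.7 FPKM for ND-MWFE, a small subunit of the proximal membrane arm, to 643 FPKM for ND-MLRQ, whose mammalian counterpart is found with complex IV. SdhA, the flavoprotein that oxidises succinate, was the lowest complex II subunit at 199.7 FPKM, and SdhC, a membrane anchor, the highest at 332 FPKM. In complex III, UQCR-11, the acidic hinge subunit, averaged 204 FPKM and UQCR-Q, a small accessory subunit, 681 FPKM. Complex IV ran from COX7A at 479.6 FPKM to COX4 at 926 FPKM. Complex V ran from ATPsynCF6, the coupling factor of the peripheral stalk, at 364 FPKM to ATPsynC, which forms the rotating c ring, at 1897 FPKM.

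The genes were spread over the genome, with 12 subunit genes on chromosome arm 2L, 11 on 2R, 13 on 3L, 13 on 3R, 2 on chromosome 4 and 12 on X. SdhA lies at 2R:19391863-19395971 (minus strand), ATPsynbeta at 4:1031484-1034917 (plus strand), ND-75 at X:8248651-8251687 (minus strand) and COX8 at 3L:21538859-21539447 (minus strand), all on dm6 as in the tables.

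After a filter of 1 FPKM or more in at least 2 libraries, 65 of the 88 members were tested: 61 subunits, the paralogues COX7AL2, COX7CL and ATPsynepsilonL, and Sdhaf3. The 23 members below the filter were 21 paralogues and 2 subunits. In complex I the paralogues ND-20L, ND-24L, ND-49L, ND-51L1, ND-51L2 and ND-B14.5AL fell below it, in complex II SdhAL, SdhBL and SdhCL, and in complex III UQCR-11L, UQCR-14L and UQCR-6.4L. In complex IV they were COX4L, COX5BL, COX6AL, COX6AL2, COX6CL and COX7AL, and in complex V ATPsynCF6L, ATPsynGL and ATPsynbetaL. None of these 21 exceeded 1.41 FPKM (UQCR-6.4L) in any library, whereas every tested subunit averaged 63.7 FPKM or more. ND-B14.5AL, SdhCL, UQCR-14L and the subunit UQCR-14 were listed at 0 in all 8 libraries. The other untested subunit, ND-B8, ranged from 0.167 to 1.19 FPKM. Exons of both untested subunits overlap a gene on the opposite strand that was itself abundant (Gs1l, at 95.4 to 149 FPKM, over ND-B8, and CG32576, at 184 to 312 FPKM, over UQCR-14), and the strand setting of the authors' counting is not given in the sources used here, so the levels of ND-B8 and UQCR-14 are uncertain. Exons of 8 members overlap another gene on the same strand, ND-MNLL, ND-MWFE, ND-15, ND-MLRQ, UQCR-Q, COX6B and ATPsynC among the abundant ones, and their values are likewise less certain.

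Summed over each complex, the 2 vriΔ679 libraries at ZT14 lay apart, one above and the other below wild type in complexes I to IV. Complex I summed to 10586 FPKM in vriΔ679 ZT14 replicate 1 and 7347 FPKM in replicate 2, against 8065 and 8383 FPKM in wild type at ZT14. Complex II summed to 1341 and 1046 FPKM in vriΔ679, against 1154 and 1124 FPKM in wild type. Complex III summed to 2855 and 1915 FPKM in vriΔ679, against 2288 and 2320 FPKM in wild type. In each of these complexes replicate 1 was the highest of the 4 libraries and replicate 2 the lowest. Complex IV had the widest gap, with 7203 and 4489 FPKM in vriΔ679, against 5018 and 5142 FPKM in wild type. In complex V replicate 1 lay between the wild-type libraries, with 10219 and 7367 FPKM in vriΔ679 against 9496 and 10910 FPKM in wild type. The ratio of replicate 1 to replicate 2 in vriΔ679 at ZT14 was 1.44 for complex I, 1.28 for complex II, 1.49 for complex III, 1.60 for complex IV and 1.39 for complex V. In the other 3 groups the higher replicate exceeded the lower by 1.01 to 1.15 times in any complex.

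At ZT2 the libraries lay closer. Complex I summed to 7801 and 7571 FPKM in vriΔ679 and 8057 and 8302 FPKM in wild type, and complex II to 1089.7 and 990.2 FPKM in vriΔ679 and 1099.6 and 1231 FPKM in wild type. Complex III summed to 2002 and 2040.4 FPKM in vriΔ679 and 2093 and 2394 FPKM in wild type. Complex IV overlapped between the genotypes, with 5076 and 5039.7 FPKM in vriΔ679 and 4771 and 5362 FPKM in wild type. Complex V summed to 8419.6 and 7535 FPKM in vriΔ679 and 9225 and 9754 FPKM in wild type, so both mutant libraries were below both wild-type libraries. Sums of complexes I, II, III and V were thus lower in both vriΔ679 libraries at ZT2, by 0.09, 0.16, 0.15 and 0.25 on the log2 scale, of which the complex I difference changed sign under rescaling to equal totals (0.01) and quantile normalization (0.03).

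**Figure D1:**
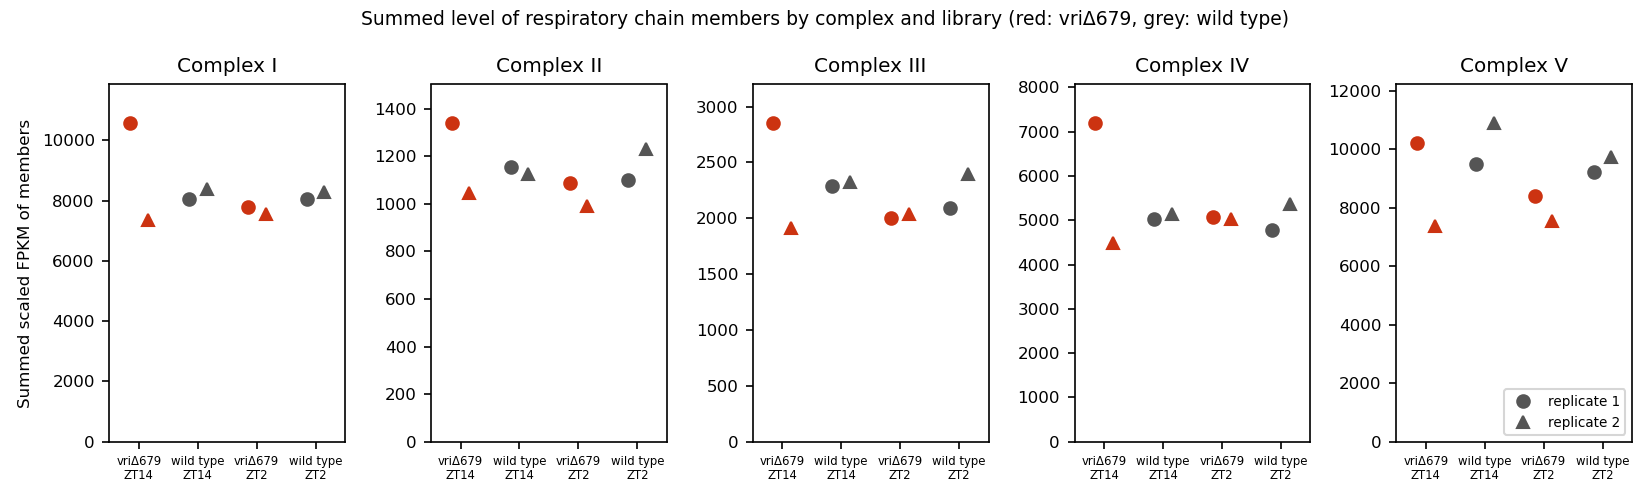
Summed scaled FPKM of the members of each complex (y axis, from 0) in each library, with vriΔ679 in red, wild type in grey, circles for replicate 1 and triangles for replicate 2. In complexes I to IV the vriΔ679 ZT14 replicates stand above and below both wild-type ZT14 libraries, while in complex V replicate 1 (10219 FPKM) lies between them.

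The split between the vriΔ679 ZT14 replicates held subunit by subunit. Of the 61 tested subunits, 57 were higher in replicate 1 than in replicate 2, with a median gap of 0.59 on the log2 scale, against 56.4% of all 10122 genes tested, whose median gap was 0.08. Replicate 1 exceeded both wild-type ZT14 libraries for 51 subunits and was below both for 7, against 4620 and 4682 of all 10122 genes tested. The library labelled vriΔ679 ZT14 replicate 2 was below both for 50 and above both for 6, against 4430 and 4400 of all genes. For 41 subunits, or 67.2%, both wild-type libraries lay between the mutant replicates, against 18.2% of all genes tested. The same median gap was 0.12 in vriΔ679 at ZT2, -0.05 in wild type at ZT14 and -0.09 in wild type at ZT2.

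Several small subunits of the complex I membrane arm stood above wild type in replicate 1. ND-B12, an accessory subunit of the distal membrane arm, had 851 and 537 FPKM in vriΔ679 at ZT14, against 459.7 and 439 FPKM in wild type, and 473 and 544 FPKM in vriΔ679 at ZT2, against 454 and 510.3 FPKM in wild type. It was one of 5 of the 33 tested complex I subunits (15.2%) above wild type in both ZT14 mutant libraries, against 31.6% of all genes tested. ND-AGGG, of the same arm, had 221 and 139 FPKM in vriΔ679 and 117 and 127 FPKM in wild type at ZT14. ND-15, of the proximal arm, had 193 and 123 FPKM in vriΔ679 against 99.7 and 117 FPKM in wild type. ND-MNLL, another distal-arm subunit whose exons overlap CG45089, had the widest gap of any subunit, with 319.8 and 75.2 FPKM in vriΔ679 against 166 and 191 FPKM in wild type.

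ND-75 and ND-49, both long core subunits, differed from this pattern, while ND-51, a core subunit of like length to ND-49, followed it with 446 and 338 FPKM in vriΔ679 at ZT14, against 310.1 and 305 FPKM in wild type. ND-75, the iron-sulphur protein that carries electrons away from the NADH site, had 213 and 229 FPKM in vriΔ679 at ZT14, against 281 and 262 FPKM in wild type. At ZT2 it had 221 and 203 FPKM in vriΔ679, against 256 and 281 FPKM in wild type. ND-75 was therefore below wild type in all 4 mutant libraries. ND-49, a core subunit near the ubiquinone site, had nearly equal values in the 2 mutant replicates, 294 and 306 FPKM, against 269 and 291 FPKM in wild type.

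By module of complex I, median differences from the wild-type ZT14 mean in replicates 1 and 2 of the mutant were 0.26 and -0.21 (log2) for 6 subunits of the NADH-oxidising N module and 0.32 and -0.15 for 8 subunits of the ubiquinone-reducing Q module. They were 0.43 and -0.13 for 8 subunits of the proximal and 0.36 and -0.22 for 10 subunits of the distal membrane arm. All 4 modules were thus higher in replicate 1 and lower in replicate 2.

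In complex II the 4 subunits did not move together. SdhA had 155 and 191 FPKM in vriΔ679 at ZT14, against 215 and 205 FPKM in wild type, and was lower in replicate 1 than in replicate 2. SdhB, the iron-sulphur subunit, had 407 and 271 FPKM in vriΔ679 against 341 and 318 FPKM in wild type. SdhC had 445 and 325 FPKM in vriΔ679 against 306 and 299.8 FPKM in wild type, above wild type in both mutant libraries. SdhD, the second membrane anchor, had 315 and 244 FPKM in vriΔ679 against 278 and 284 FPKM in wild type.

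All 5 tested complex III subunits were higher in replicate 1. UQCR-Q had 988 and 577 FPKM in vriΔ679 at ZT14, against 676 and 661 FPKM in wild type. UQCR-C2, one of the pair of core proteins, had 547 and 412 FPKM in vriΔ679, against 551 and 559.8 FPKM in wild type, and did not exceed wild type in either mutant library. Among complex IV subunits, COX8 had 848 and 405 FPKM in vriΔ679 at ZT14, against 465 and 445 FPKM in wild type. COX5A had 1187 and 722 FPKM in vriΔ679 against 867 and 895 FPKM in wild type. COX4, among the earliest nuclear subunits to join the COX1 core in mammals, had 1190.4 and 891 FPKM in vriΔ679 against 837 and 923 FPKM in wild type. For 7 of the 8 complex IV subunits the wild-type libraries lay between the mutant replicates, COX4 being the exception.

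Complex V stood lowest against wild type, with medians of 0.08 in replicate 1 and -0.51 in replicate 2 of the mutant. ATPsynbeta, the catalytic subunit, had 1518 and 1448 FPKM in vriΔ679 at ZT14, against 1925 and 2031 FPKM in wild type, and 1896 and 1698 FPKM in vriΔ679 at ZT2, against 1803 and 1696 FPKM in wild type. Both mutant libraries were below both wild-type libraries at ZT14 but not at ZT2. ATPsyngamma, the central shaft, had 702 and 447 FPKM in vriΔ679 against 707 and 707 FPKM in wild type. ATPsynD, of the peripheral stalk, had 832 and 524 FPKM in vriΔ679 against 749 and 744 FPKM in wild type. ATPsynC spread within both groups, with 2117 and 1312 FPKM in vriΔ679 and 1786 and 2737 FPKM in wild type at ZT14. ATPsynCF6 was the subunit furthest against the pattern, with 326 and 516 FPKM in vriΔ679 and 285 and 517 FPKM in wild type, and its replicates differed as much within wild type as within the mutant.

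**Figure D2:**
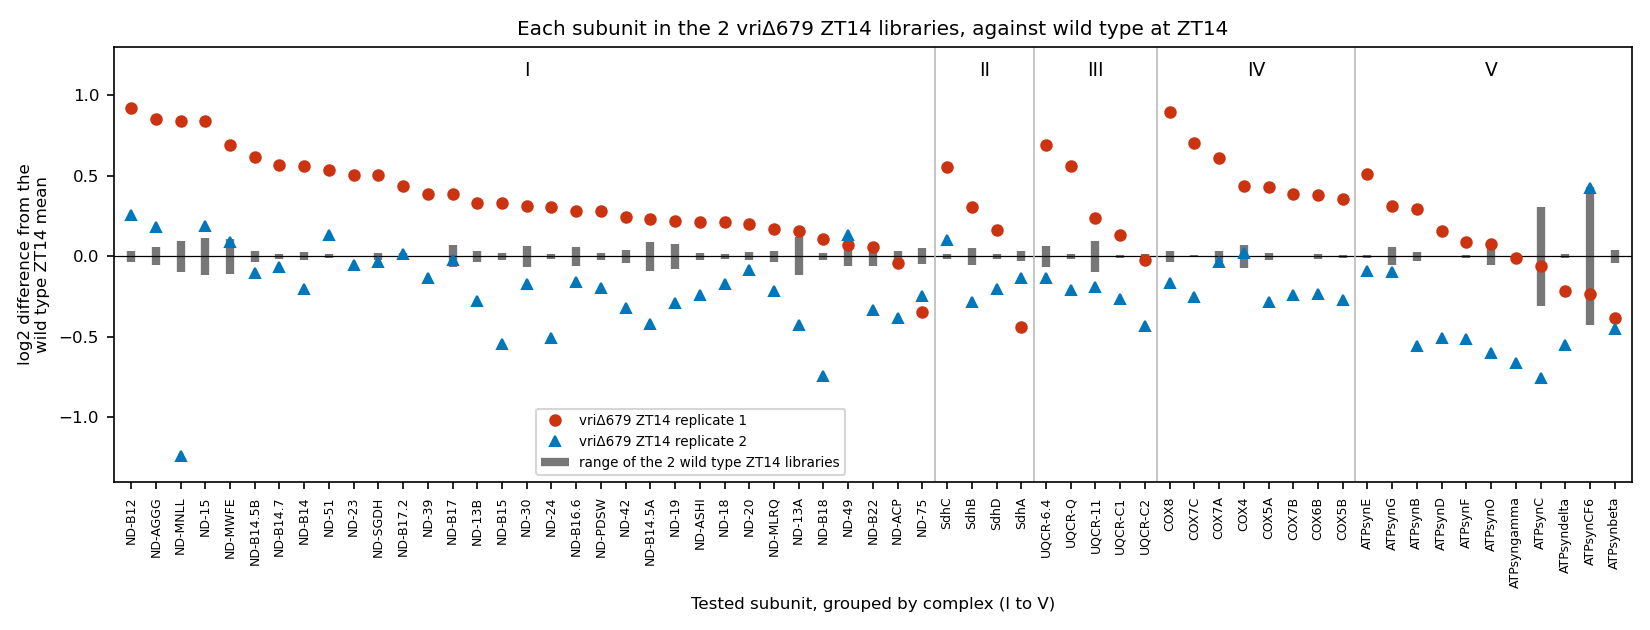
Log2 difference of each of the 61 tested subunits from the wild-type ZT14 mean (y axis) in vriΔ679 ZT14 replicate 1 (red circles) and the library labelled vriΔ679 ZT14 replicate 2 (blue triangles), with grey bars for the range of the 2 wild-type libraries. Subunits are grouped by complex and ordered by replicate 1; for 41 of them the wild-type range lies between the mutant values, and 7, ND-75, SdhA and ATPsynbeta among them, lie below it in both.

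The test of genotype at ZT14 used limma on log2(scaled FPKM + 0.5) with Benjamini-Hochberg adjustment over all 10122 genes tested. With both mutant libraries, 0 of 65 tested members were called lower, against 12.8% of all genes, and 0 higher, against 9.53%. At an unadjusted p under 0.05 there were 3 members, ATPsynbeta, ND-B12 and ND-75. ATPsynbeta differed by -0.42 (SE 0.15, adjusted p = 0.0846), ND-B12 by 0.59 (SE 0.23, adjusted p = 0.102) and ND-75 by -0.30 (SE 0.12, adjusted p = 0.126). The median difference of the 61 subunits was 0.04, with 36 positive and 25 negative, beside -0.01 for all genes tested. The 95% intervals of 53 subunits lay within a 2-fold change in either direction, and those of the other 8 reached beyond it.

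By complex, the median difference at ZT14 was 0.06 for complex I, -0.005 for complex II, 0.02 for complex III, 0.15 for complex IV and -0.21 for complex V. All 8 subunits of complex IV had positive values and 8 of 11 of complex V negative ones. The sum of complex V differed by -0.23, and by -0.16 without rescaling, -0.26 under equal totals and -0.24 under quantile normalization, but by 0.0057 without the library labelled vriΔ679 ZT14 replicate 2 and by -0.47 without replicate 1. In complex II the smallest p-values were those of SdhA at -0.28 (SE 0.14, adjusted p = 0.170) and SdhC at 0.33 (SE 0.18, adjusted p = 0.217). UQCR-C2 at -0.23 and UQCR-6.4 at 0.28 led complex III, with adjusted p of 0.370 and 0.536. In complex IV these were COX7A at 0.29 and COX4 at 0.23, with adjusted p of 0.350 and 0.378. ATPsyndelta, a central-stalk subunit, followed ATPsynbeta in complex V at -0.38 (SE 0.17, adjusted p = 0.150). Of the 61 subunits, 7 lay below wild type in both mutant libraries and 6 above, where 31.6% of all genes tested lay below and 31.6% above.

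Calls depended on which mutant library was kept. Without the library labelled vriΔ679 ZT14 replicate 2, 25 of 65 members were called higher, or 38.5%, against 24.9% of all genes, and 1 (SdhA) lower, against 26.7%. The median difference of the 61 subunits was then 0.32, with 0.32 for complex I, 0.24 for complex II, 0.25 for complex III, 0.44 for complex IV and 0.09 for complex V. The higher calls were 14 members of complex I, 7 of complex IV, 2 of complex V, and SdhC and UQCR-Q. ND-B12 stood at 0.93 (adjusted p = 0.00372), COX7A at 0.62 (adjusted p = 0.00596), SdhC at 0.57 (adjusted p = 0.0159), COX4 at 0.45 (adjusted p = 0.0347) and SdhA at -0.42 (adjusted p = 0.0177). Without replicate 1, which left the library labelled replicate 2, 5 of 64 members were called lower, against 13.6% of all genes, and 0 higher, against 7.76%, and 19 members had an unadjusted p under 0.05. Those 5 were ATPsynD, ATPsyngamma, ATPsynO, ND-MNLL and ND-B18, and the median of the subunits was -0.21, with -0.17 for complexes I and II, -0.21 for complex III, -0.24 for complex IV and -0.51 for complex V. In both fits the single mutant library was assumed to vary as the other groups did. ATPsynbeta kept its sign in both, with -0.37 (adjusted p = 0.0529) without replicate 2 and -0.45 (adjusted p = 0.0567) without replicate 1.

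The gap between the mutant ZT14 replicates also went with transcript length. Across the 61 subunits, Spearman's rho between the gap and length was -0.48, and across all 10122 genes tested it was -0.60; genes of a library share its depth and RNA and are not independent, so no p is given. Subunits of up to 600 nt had a median gap of 0.65 (23 genes), those of 600 to 1000 nt 0.48 (25 genes) and those of 1000 to 2000 nt 0.41 (11 genes). The 2 subunits over 2000 nt, SdhA and ND-75, had gaps of -0.30 and -0.10. For all genes tested the medians of the same classes were 0.40, 0.42, 0.22 and -0.21, so the subunit medians of the 3 classes up to 2000 nt were above those of all genes. Genes that averaged over 100 FPKM, as nearly all subunits did, had medians of 0.65, 0.55, 0.25 and -0.16 in the same classes. The median length of the subunits was 697 nt, against 1836 nt for all genes tested. In the other groups rho across subunits was 0.60 in vriΔ679 at ZT2, 0.15 in wild type at ZT14 and 0.18 in wild type at ZT2. Across all genes tested it was -0.31, 0.21 and -0.09 in the same order, so in vriΔ679 at ZT2 the subunits and all genes had opposite signs. When each library's trend of level on length was removed, an alternative chosen after seeing the data, the median gap of the subunits was 0.24, and 13 members were called lower in vriΔ679 at ZT14, against 16.1% of all genes, 8 in complex I and 5 in complex V. With that trend removed and without the library labelled replicate 2, 5 members were called lower, against 21.3% of all genes, and 2 higher, against 21.0%, and without replicate 1, 21 were called lower, against 16.0%, and 0 higher, against 11.5%. The part of RNA quality in this relation was not tested.

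**Figure D3:**
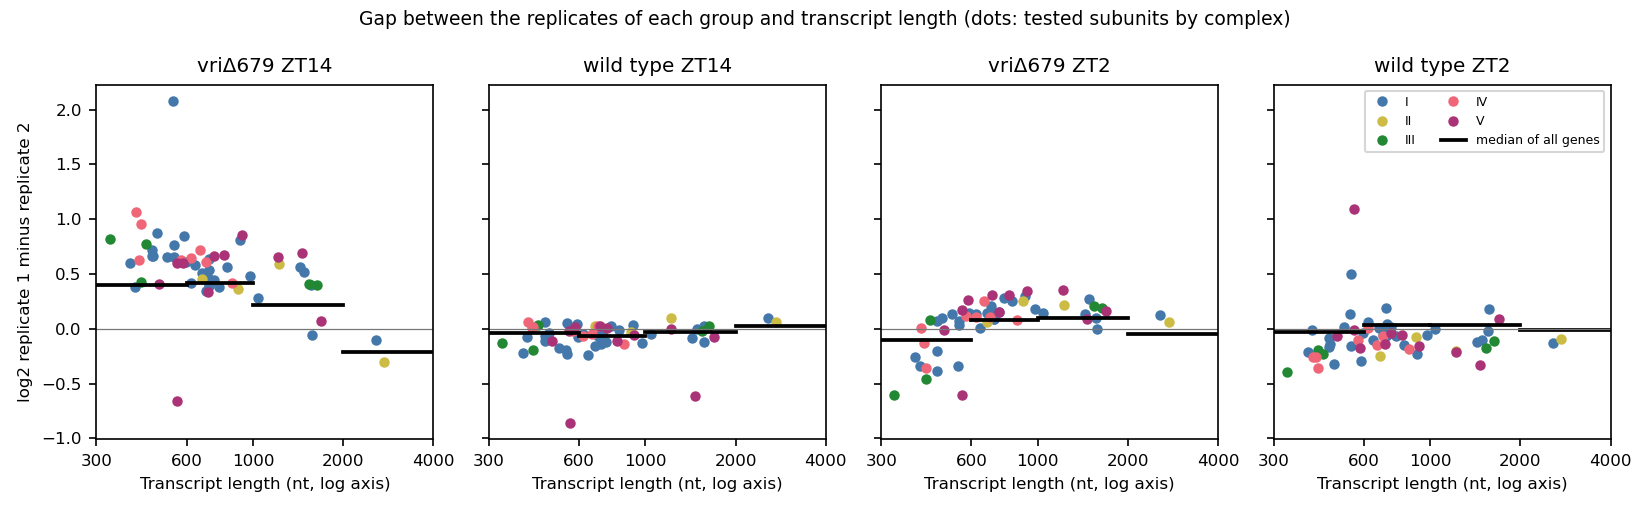
Gap between replicate 1 and replicate 2 (log2, y axis) against transcript length in nt (log axis) for the 61 tested subunits, coloured by complex, in each group, with black bars for the median of all genes tested in 4 length classes. Gaps in vriΔ679 at ZT14 are between 0.33 and 0.85 for subunits of 600 to 1000 nt and below 0 for the longest subunits, SdhA and ND-75; in the other groups most lie near 0.

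At ZT2, subunits tended to stand lower in the mutant without passing the test. Of the 61 subunits, 32 (52.5%) lay below wild type in both vriΔ679 libraries, against 29.3% of all genes tested, and 6 lay above in both, against 28.4%. The median difference was -0.12, with 42 negative and 19 positive, beside -0.005 for all genes. It was -0.03 under rescaling to equal totals, beside 0.09 for all genes, and -0.02 under quantile normalization, beside -0.01 for all genes. It was -0.20 without vriΔ679 ZT2 replicate 1 and -0.05 without replicate 2. By limma, 0 of 65 members were called lower, against 1.01% of all genes, and 0 higher, against 1.88%, with 7 members at an unadjusted p under 0.05. That test took its spread from all 4 groups, the 2 vriΔ679 ZT14 libraries that disagreed among them. With only the ZT2 groups in the limma fit, 0 members were called, against 4.30% of all genes, and 15 had an unadjusted p under 0.05. The subunit median was -0.13 without vriΔ679 ZT14 replicate 1 and -0.12 without the library labelled vriΔ679 ZT14 replicate 2. With library weights, 3 (UQCR-C2, ND-20 and ND-PDSW) were called lower, against 3.92% of all genes. Medians by complex were -0.11 for complex I, -0.195 for complex II, -0.16 for complex III, -0.02 for complex IV and -0.23 for complex V.

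Among named members at ZT2, ND-20, which carries the last iron-sulphur cluster before ubiquinone, had 217 and 197 FPKM in vriΔ679, against 271 and 271 FPKM in wild type (-0.39, SE 0.14, adjusted p = 0.263). UQCR-C2 had 426 and 368 FPKM in vriΔ679, against 527 and 595 FPKM in wild type (-0.50, SE 0.18, adjusted p = 0.263). ND-75 differed by -0.34 (SE 0.12, adjusted p = 0.278). These 3 genes were lower in both mutant libraries, whereas UQCR-11 was higher in both, with 207 and 284 FPKM in vriΔ679 against 149.9 and 171 FPKM in wild type (0.59, SE 0.21, adjusted p = 0.263). SdhB at -0.37, Sdhaf3 at 0.37, ATPsynC at -0.69 and ATPsyngamma at -0.36 led their complexes with adjusted p of 0.504, 0.423, 0.358 and 0.581. COX7AL2, a paralogue of COX7A, had 99.1 and 180.4 FPKM in vriΔ679, against 51.8 and 71.0 FPKM in wild type, the largest difference of any member at ZT2 (1.14, SE 0.34, adjusted p = 0.173). Its parent COX7A had 441 and 409 FPKM in vriΔ679, against 474 and 471 FPKM in wild type. The second paralogue of complex IV that was tested, COX7CL, differed by 0.22 (adjusted p = 0.596). The tested paralogue of complex V, ATPsynepsilonL, named after the epsilon subunit, had 1.64 and 0.854 FPKM in vriΔ679 at ZT14, against 0.648 and 0.876 FPKM in wild type, and an interaction of 0.50 (SE 0.36, adjusted p = 0.399).

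**Figure D4:**
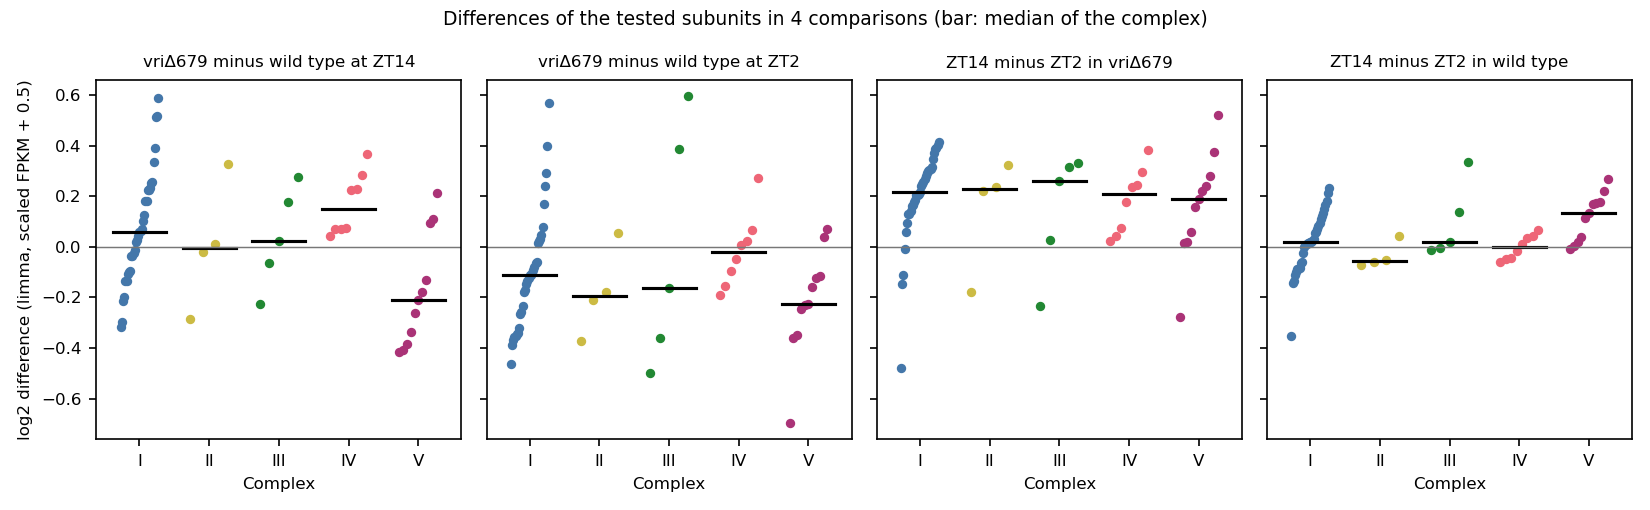
Log2 differences of the 61 tested subunits (dots, limma on scaled FPKM + 0.5) by complex in 4 comparisons, with bars for the median of each complex. Medians of ZT14 minus ZT2 in vriΔ679 lie between 0.19 and 0.26 in every complex, those of ZT14 minus ZT2 in wild type between -0.06 and 0.13. The mutant medians average 2 ZT14 libraries that disagreed. Complex sums for that comparison differed by -0.17 to 0.01 without replicate 1 and by 0.36 to 0.51 without the library labelled replicate 2.

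Between times in the mutant, subunits were higher at ZT14 on average, an average over 2 libraries that disagreed. The median difference, ZT14 minus ZT2 in vriΔ679, was 0.22, with 54 of 61 positive, beside -0.02 for all genes tested. By limma, 0 of 65 members were called higher, against 3.59% of all genes, and 1 lower, against 6.38%. That 1 member was COX7CL, a paralogue of COX7C close to the detection filter, with 0.715 and 0.632 FPKM at ZT14, against 1.36 and 1.35 FPKM at ZT2 (-0.66, SE 0.15, adjusted p = 0.0406). In wild type COX7CL had 0.551 and 0.584 FPKM at ZT14, against 1.25 and 0.949 FPKM at ZT2 (-0.58, SE 0.15, adjusted p = 0.0756). Its call was lost when any 1 library was left out other than the library labelled vriΔ679 ZT14 replicate 2, without which the adjusted p was 0.0385 (limma). The parent COX7C stood at 803 and 414 FPKM at ZT14 in vriΔ679, against 502 and 643 FPKM at ZT2, and exons of COX7CL overlap sel on the other strand.

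In vriΔ679, both ZT14 libraries lay above both ZT2 libraries for 9 of 65 members (ND-15, ND-20, ND-30, ND-B14.7, ND-B17, ND-B22, ND-PDSW, UQCR-C1 and COX7A), against 27.4% of all genes tested, and below for 3 (ND-49, COX7CL and ATPsynbeta), against 28.9%. Among members with the smallest p of their complex, ND-20 differed by 0.30, ND-PDSW by 0.37, UQCR-C1 by 0.32, COX7A by 0.38 and ATPsynbeta by -0.28, with adjusted p of 0.183 for ND-20, 0.206 for ND-PDSW, 0.244 for UQCR-C1, 0.254 for COX7A and 0.239 for ATPsynbeta. ATPsynE was at 0.38, and in complex II the smallest p-values were those of SdhB at 0.32 and SdhD at 0.23. Without the library labelled vriΔ679 ZT14 replicate 2, 43 of 65 members were called higher, against 22.3% of all genes, and 2 (COX7CL and SdhA) lower, against 23.4%, with a subunit median of 0.50, and ND-20, ND-PDSW, UQCR-C1, COX7A, ATPsynE, SdhB and SdhD were among the higher calls. Without replicate 1, 0 were called higher, against 2.79%, and 1 (ND-MNLL) lower, against 6.58%, with 2 members at an unadjusted p under 0.05 and a median of -0.07.

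In wild type the 2 times lay close together. The median difference, ZT14 minus ZT2, was 0.02, with 39 of 61 positive, beside 0.002 for all genes, and by limma 0 of 65 members were called lower, against 2.72% of all genes, and 0 higher, against 3.91%, with 1 member, COX7CL, at an unadjusted p under 0.05. The intervals of 59 of 61 subunits lay within a 2-fold change in either direction. Complex V had the highest median, 0.13, with 10 of 11 subunits positive, ATPsynbeta at 0.18 and ATPsyndelta at 0.17 among them. ND-51, the subunit that binds NADH and its flavin, had 310.1 and 305 FPKM at ZT14, against 391 and 395 FPKM at ZT2 (-0.35, SE 0.16, adjusted p = 0.280). Its adjusted p was 0.0413 without vriΔ679 ZT14 replicate 1 and 0.0429 without the library labelled replicate 2. In vriΔ679, ND-51 stood at 446 and 338 FPKM at ZT14, against 345 and 323 FPKM at ZT2. Other members with 1 of the 2 smallest p of their complex in wild type were ND-13A (0.23), UQCR-11 (0.34), UQCR-6.4 (0.14), COX7AL2 (0.68), Sdhaf3 (0.27) and SdhA (-0.07), with adjusted p between 0.336 (COX7AL2) and 0.896 (UQCR-6.4).

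Whether the time difference differed between genotypes was tested as an interaction, the mutant's ZT14 minus ZT2 minus that of wild type. By limma, 0 of 65 members were called lower, against 5.88% of all genes, and 0 higher, against 2.37%. The smallest p-values were those of ND-51 at 0.57 (SE 0.22, adjusted p = 0.160), COX7AL2 at -1.13 (SE 0.47, adjusted p = 0.184) and ND-20 at 0.45 (SE 0.19, adjusted p = 0.196). Without the library labelled vriΔ679 ZT14 replicate 2 they were 0.78 for ND-51 (adjusted p = 0.00814), -0.81 for COX7AL2 (adjusted p = 0.266) and 0.59 for ND-20 (adjusted p = 0.0196). Without replicate 1 they were 0.37 for ND-51 (adjusted p = 0.124), -1.43 for COX7AL2 (adjusted p = 0.147) and 0.31 for ND-20 (adjusted p = 0.206). Among the 65 members, ND-51 and COX7AL2 had an unadjusted p under 0.05. The subunit median was 0.19 beside -0.01 for all genes, and was 0.06 under rescaling to equal totals, which moved the median of all genes to -0.13. It was 0.46 without the library labelled vriΔ679 ZT14 replicate 2 and -0.10 without replicate 1, so its sign turned with the library left out. Without the library labelled vriΔ679 ZT14 replicate 2, 22 members were called higher, against 19.9% of all genes, and 0 lower, against 21.7%, with 39 members at an unadjusted p under 0.05. Without replicate 1, 0 were called higher, against 4.03%, and 1 (ND-MNLL) lower, against 8.66%, with 7 at an unadjusted p under 0.05.

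Respiratory chain subunits under other symbols showed a like split. Of 10 tested genes, 9 were higher in vriΔ679 ZT14 replicate 1 than in replicate 2, with medians of 0.30 and -0.33 against wild type. Cyt-c-p, the main cytochrome c gene, had 1313 and 778 FPKM in vriΔ679 at ZT14, against 1326 and 1426 FPKM in wild type. cype, the COX6C subunit, had 901 and 527 FPKM in vriΔ679 against 522 and 512 FPKM in wild type. Of all genes tested, 12.8% were called lower at ZT14 with both mutant libraries. blw, the alpha subunit of ATP synthase that pairs with ATPsynbeta, was the only one of the 10 called at ZT14, with 1006 and 1038 FPKM in vriΔ679, against 1633 and 1567 FPKM in wild type (-0.65, adjusted p = 0.0197, limma). The blw difference was -0.66 without the library labelled replicate 2 and -0.62 without replicate 1. In the same order, levy stood at 0.60 and 0.03, cype at 0.81 and 0.03, NP15.6 at 0.38 and -0.36 and Cyt-c-p at -0.06 and -0.82. Like ATPsynbeta, blw was below wild type in both mutant replicates.

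Other gene groups, mitochondrial and not, were set beside the subunits, as counts and medians only. Of all genes tested, 56.4% were higher in replicate 1 than in replicate 2 of vriΔ679 at ZT14. With both mutant libraries, 12.8% of all genes were called lower at ZT14 and 9.53% higher. Of 73 mitochondrial ribosomal proteins, 72 were higher in replicate 1 than in replicate 2 of vriΔ679 at ZT14, with medians of 0.54 and 0.02 against wild type, and 4 (mRpL34, mRpL43, mRpS23 and mRpS28) were called higher and 0 lower. All 84 cytosolic ribosomal protein genes tested were higher in replicate 1, with medians of 0.89 and 0.23, and 13 were called higher. The median lengths of these groups, 739 and 669 nt, were close to that of the subunits. TCA cycle enzymes, median length 1819 nt, showed no such split, with 8 of 15 higher in replicate 1, medians of -0.42 and -0.485 and 8 called lower. Vacuolar ATPase subunits, median length 1843 nt, had 13 of 22 higher in replicate 1 and medians of -0.155 and -0.151. Proteasome subunits, median length 1358 nt, had 34 of 36 higher in replicate 1 and medians of -0.915 and -1.32, with 29 of 36 called lower. Heat shock genes, median length 2277.5 nt, had 12 of 14 higher in replicate 1 and medians of -0.06 and -0.63. Their median gap was 0.56, and 0.60 with the length trend removed. In the other groups it was -0.19 in vriΔ679 at ZT2, -0.02 in wild type at ZT14 and 0.28 in wild type at ZT2. The part of length in the gaps of these gene groups was not tested. Of 8 mitochondrial carriers and porins, 2 (sesB and CG9090) were called lower and 1, Ant2, higher. Among 10 regulators and copying factors of the mitochondrial genome, mtDNA-helicase was called higher and none lower; genes of these groups were named after their values were seen. Medians in replicate 1 and the library labelled replicate 2 were -0.02 and -0.30 for carriers and porins. For regulators and copying factors they were 0.12 and 0.07. The calls of sesB, CG9090 and Ant2 were kept whichever vriΔ679 ZT14 library was left out, and that of mtDNA-helicase was lost without replicate 1.

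**Figure D5:**
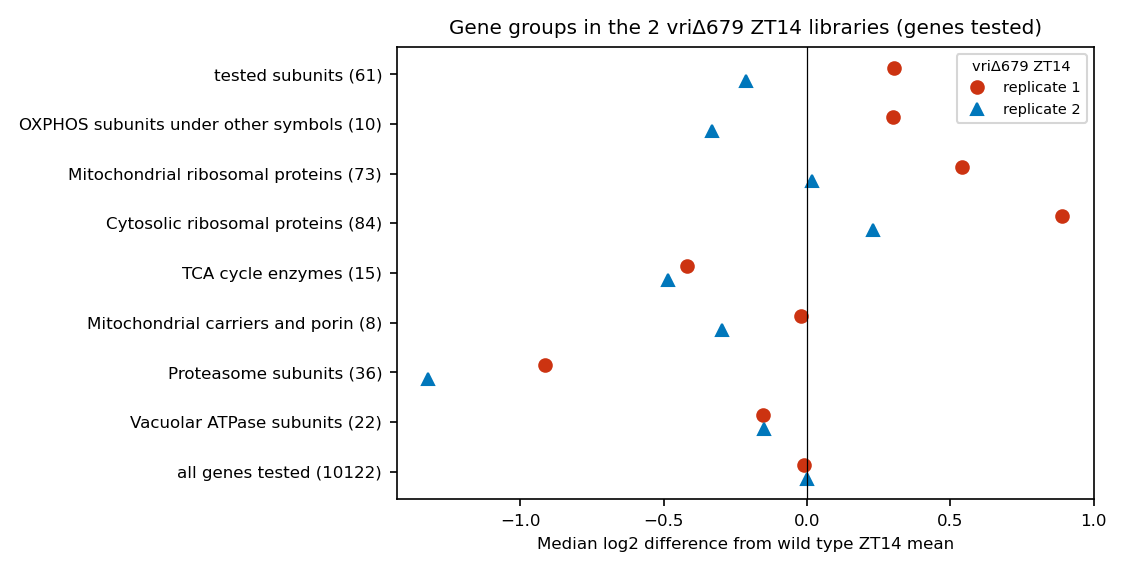
Median log2 difference from the wild-type ZT14 mean (x axis) of gene groups in vriΔ679 ZT14 replicate 1 (red circles) and the library labelled replicate 2 (blue triangles), with the number of genes tested in brackets. Respiratory chain subunits (0.30 and -0.21) lie on opposite sides of 0, as do subunits under other symbols; TCA cycle enzymes and proteasome subunits lie below 0 in both.

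Several subunit genes have more than 1 transcript, and the division of FPKM among them was unstable. Of 51 tested members with more than 1 transcript, 17 had a different leading transcript in different libraries. For ATPsynC the share of the transcript that led overall was 94.9% and 56.4% in vriΔ679 at ZT14, against 23.5% and 91.4% in wild type. ND-51 had 99.7% and 18.6% of its level in one transcript in vriΔ679 at ZT14, against 26.7% and 28.8% in wild type. For ATPsynCF6 the leading transcript held 81.2% and 42.6% in vriΔ679, against 87.8% and 44.4% in wild type. Since FPKM divides by transcript length, a gene's sum depends on this assignment, and no difference between transcripts of a member is reported.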

How the data were processed

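The authors deposited, for each library, FPKM and a coverage signal for 35411 RefSeq transcripts. STAR 2.6.1d, StringTie and the build dm6 are listed, with no settings, in the submitters' processing notes. Per the labels' protocols, poly(A) RNA was made into directional libraries and sequenced as 75 nt single-end reads. The deposited coverage was used only to estimate depth. Transcript FPKM was added up per gene. Library factors of 0.968 to 1.038 came from median ratios of 12078 genes. A gene was kept when 2 or more libraries reached 1 FPKM, and the 10122 genes kept were tested with limma 3.58.1 (R 4.3.3; eBayes with trend and robust options) on log2(FPKM + 0.5), so fold changes of low genes are understated, with Benjamini-Hochberg adjustment over all genes and a threshold of 0.05. The 4 groups shared 1 estimate of spread per gene. The procedure was tested on simulated data. Members and lists were chosen with earlier results of these data known. Named by rule were, per comparison and complex, up to 6 called members with non-overlapping libraries or the 2 with the smallest p, the extremes of abundance, members below the filter and tested paralogues. Others, among them ND-AGGG, ND-15, ND-MNLL, ND-49, COX8, COX5A and ATPsynD, were described outside this rule with their values known. A motif search in promoters was not run, as promoter sequences were not used here.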

Additional observations from a re-analysis of the deposited data

How the results depend on the processing

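Counts of called members changed most with the 2 vriΔ679 ZT14 libraries. Leaving out 1 library at a time gave 0 to 5 lower and 0 to 25 higher calls for genotype at ZT14, 0 to 2 lower and 0 to 43 higher for ZT14 minus ZT2 in vriΔ679, 0 to 1 lower for ZT14 minus ZT2 in wild type, and 0 to 1 lower and 0 to 22 higher for genotype by time. At ZT14, genotype gave 1 lower call under equal totals and under eBayes without trend and robust (ATPsynbeta in both), and 2 higher calls without a filter (COX7AL and COX6CL) and under quantile normalization (ND-B12 and ND-51). Among all genes, 1166 of 10122 were called lower under equal totals and 1272 under eBayes without trend and robust. Higher calls among all genes numbered 833 of 15357 without a filter and 1435 of 10122 under quantile normalization. At ZT2 it gave 3 lower calls with library weights (UQCR-C2, ND-20 and ND-PDSW), against 3.92% of all genes. With the length trend removed, chosen after seeing the data, lower calls numbered 13 at ZT14, 1 at ZT2 (ND-PDSW) and 4 for genotype by time. Among all 10122 genes, lower calls in that setting numbered 1634, 198 and 963 in the same order. Removing it and also a vriΔ679 ZT14 library gave, without replicate 1 and replicate 2 in turn, 21 and 5 lower and 0 and 2 higher calls at ZT14, 3 and 3 lower at ZT2, 0 and 5 higher for ZT14 minus ZT2 in vriΔ679, 1 and 1 lower in wild type, and 2 and 3 lower and 0 and 2 higher for genotype by time. For ZT14 minus ZT2 in vriΔ679, the COX7CL call gave way to 0 calls with FPKM of at least 5, quantile normalization, only the groups compared, library weights or the replicate block. Without a filter there were 2 lower calls, against 587 among all 15357 genes. In wild type that comparison gave 1 lower call with only the groups compared and under eBayes without trend and robust, and 2 with library weights. Among all 10122 genes, lower calls in these settings numbered 772, 274 and 1024. The complex I sum at ZT2 differed by -0.0158 without rescaling, 0.00886 under equal totals and 0.0279 under quantile normalization, which also put the complex IV sum at 0.19 at ZT2 and 0.14 in wild type over time. Causes were not tested.

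The replicate block changed no other call: it gave 0 called members in every comparison. Same-numbered libraries correlated in their deviations at -0.14 to 0.27 between groups. With 2 libraries a group, these values cannot settle whether the numbers pair the samples. Among results of single members and medians of subunits, 1111 stayed on their side of the threshold or, for medians, moved by less than the spread between libraries. Direction could still turn among these where neither fit passed. UQCR-6.4 at ZT14, for example, went from 0.28 to -0.14 without vriΔ679 ZT14 replicate 1. A further 49 passed the threshold newly, 12 no longer passed and 20 medians moved by more than the spread. With 2 libraries a group, the bounds of a subunit's 95% interval at ZT14 had medians of -0.45 and 0.52 (log2).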
